A study of Homo sapiens with 12 samples.

Results

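Genes of homologous recombination, of the Fanconi pathway and of the replication checkpoint were followed in HuH-7 cells exposed to the compound SLMP53-2. A list of 39 genes was used, and a gene was taken as measured when a gene probe of the scanner output carried its name. All 39 were found, on 52 probes, of which 50 passed the filter on dim probes, among 24251 genes and 33467 probes tested in all. HuH-7 is a cell line from a human hepatocellular carcinoma, and the labels give it a mutant p53. SLMP53-2 is a small molecule under study as a reactivator of mutant p53.

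The cells of all groups were treated for 24 h, with the solvent DMSO alone, with 28 µM SLMP53-2 or with 42 µM SLMP53-2, which are 2 and 3 times the IC50. The titles give the higher dose as 42 µM and the treatment labels as 48 µM, and the first is used below. Each group holds 4 biological replicates of the same line, 12 arrays on 5 slides, and no untreated culture without DMSO was among them. An Agilent array of 1 colour reads RNA as the brightness of spots, and values below are log2 signals after background correction and quantile normalization, so a difference of 1 is a factor of 2.

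Homologous recombination repairs a broken chromosome by copying the sister chromatid, which exists only after replication, and in it BRCA1 prepares the ends and BRCA2 with PALB2 loads the recombinase. The Fanconi pathway senses strands that are crosslinked to each other: a core complex of FANC proteins, with the ubiquitin-conjugating enzyme UBE2T, marks the FANCD2 and FANCI pair, and nucleases and recombination then finish the repair. The replication checkpoint runs from the kinase ATR over the mediator claspin (CLSPN) to the kinase CHEK1 and holds back mitosis while forks are stalled. Many of these genes are transcribed mainly in late G1 and S phase under E2F factors, while others, such as ATM, are transcribed through the whole cell cycle.

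The members were divided by this background knowledge into 27 cell-cycle-linked genes, 7 constitutive genes (ATM, ATR, FANCC, FANCF, FANCL, XRCC3 and RAD51C) and 5 that were not assigned (PALB2, CHEK2, FANCE, FANCG and FANCM). The RefSeq promoter windows of GRCh38.p14, of 300 bases from 250 before to 50 after a transcript's start, were searched on both strands for the E2F site TTTNNCGC, the cell cycle homology region TTTGAA and the CCAAT box. A window was at hand for 37 of the 39 members. The E2F letters occurred in windows of 13 of these 37 genes (35.1%), against 8.23% of all 27305 genes in the table. They occurred in 11 of 25 cell-cycle-linked members and in 1 of 7 constitutive ones, FANCC. CCAAT was present in 22 members (59.5%, against 39.7% of all genes) and TTTGAA in 7 (18.9%, against 18.2%). A match is only a run of letters, and the windows hold 1 or more starts per gene, so the shares describe the table and not bound factors.

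The windows below belong to the 4 members with the largest changes at 42 µM (EXO1, RAD51AP1, CLSPN and CHEK1) and to ATM, the constitutive gene set against them. Capitals mark the E2F match, whose first base, counted from the start, is at −5 in CLSPN and at −89 in the downstream window of EXO1. The upstream window of EXO1, not shown, also holds 1 match, at position 5 after its start. No window of RAD51AP1, CHEK1 or ATM holds an E2F match, nor does any of RAD54L or FANCM, and the windows of CHEK1 and ATM shown are those that lie furthest downstream.
CLSPN, chr1:35769929-35770228, minus strand: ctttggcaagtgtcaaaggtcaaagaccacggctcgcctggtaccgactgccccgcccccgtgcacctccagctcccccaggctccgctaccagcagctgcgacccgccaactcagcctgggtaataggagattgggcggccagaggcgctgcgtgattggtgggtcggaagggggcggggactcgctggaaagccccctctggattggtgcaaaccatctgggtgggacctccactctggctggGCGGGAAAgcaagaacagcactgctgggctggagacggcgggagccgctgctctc
EXO1, chr1:241848481-241848780, plus strand: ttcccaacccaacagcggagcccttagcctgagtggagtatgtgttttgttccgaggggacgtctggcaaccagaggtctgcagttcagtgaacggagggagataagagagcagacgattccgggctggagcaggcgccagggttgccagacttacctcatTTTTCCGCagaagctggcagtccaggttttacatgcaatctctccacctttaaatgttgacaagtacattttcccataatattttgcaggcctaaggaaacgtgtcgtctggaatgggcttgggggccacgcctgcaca
RAD51AP1, chr12:4538640-4538939, plus strand: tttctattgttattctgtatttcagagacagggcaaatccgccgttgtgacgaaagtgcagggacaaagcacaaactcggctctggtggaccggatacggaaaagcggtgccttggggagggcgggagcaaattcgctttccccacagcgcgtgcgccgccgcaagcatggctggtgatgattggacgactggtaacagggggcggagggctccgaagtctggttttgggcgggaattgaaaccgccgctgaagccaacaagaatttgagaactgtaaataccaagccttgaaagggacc
CHEK1, chr11:125626106-125626405, plus strand: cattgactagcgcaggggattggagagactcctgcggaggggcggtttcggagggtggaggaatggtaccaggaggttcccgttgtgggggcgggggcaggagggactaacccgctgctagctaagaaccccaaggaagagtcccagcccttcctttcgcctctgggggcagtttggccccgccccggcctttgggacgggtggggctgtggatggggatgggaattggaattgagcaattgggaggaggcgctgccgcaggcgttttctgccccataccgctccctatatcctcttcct
ATM, chr11:108223075-108223374, plus strand: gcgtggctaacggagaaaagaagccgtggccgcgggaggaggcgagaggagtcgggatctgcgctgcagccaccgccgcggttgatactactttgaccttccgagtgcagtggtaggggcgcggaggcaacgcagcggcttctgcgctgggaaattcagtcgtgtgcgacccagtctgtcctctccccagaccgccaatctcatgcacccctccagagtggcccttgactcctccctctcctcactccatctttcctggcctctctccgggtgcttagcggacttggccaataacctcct

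Set beside the calls described below, 2 of 7 members that were called lower at 42 µM and had a window held the E2F letters (EXO1 and RMI1), as did 11 of 30 that were not called. The CCAAT box was found in 6 of those 7 and in 16 of the 30.

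All 9 hepatocyte markers, ALB and AFP among them, were well above background on all 12 arrays, and the leukocyte gene PTPRC on 0. Of the other markers of absent cell types, 3 of 5 fibroblast, 4 of 5 leukocyte and 1 of 3 endothelial genes were above background on all arrays, and none of these lists had a called gene at either dose with all arrays. LYZ of the leukocyte list changed by −1.18 at 42 µM (adjusted p = 0.0953), its groups did not overlap, and in the fit without 28 µM replicate 4 there was 1 call in that list. Between 65.0% and 85.0% of the gene spots of an array were well above background. One array stood apart: 28 µM replicate 4 lay close to the DMSO arrays, and the main results at 28 µM are therefore given with and without it. In RNA of a whole culture, fewer cells that express a gene and less of its RNA per cell cannot be told apart.

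At 42 µM most of these genes lay below DMSO. Of the 39 genes, 8 were called lower by limma (adjusted p below 0.05 and a log2 change of at least 0.6 in size) and 0 higher, while 1.43% of all genes tested were called lower and 1.57% higher. The 8 were EXO1, RAD51AP1, CHEK1, RAD54B, RAD54L, FANCM, RMI1 and UBE2T. The median log2 change of the 39 was −0.49, that of all genes −0.02. Their changes ran from −1.09 to 0.26, with 34 below 0 (54.2% of all genes were below 0). At an unadjusted p below 0.05 there were 21 lower and 0 higher members (7.72% and 8.35% of all genes), and in 18 all 4 arrays of 42 µM lay below all 4 DMSO arrays (7.02% of all genes). In 0 members did they all lie above DMSO (5.94% of all genes). Proliferation markers outside the list moved in the same direction: MKI67, PCNA, TOP2A, CCNA2, CCNB1, CDK1 and BUB1 had a median of −1.22 at 42 µM, with 6 of 7 called lower, and the part of this in the members' change was not tested. When quantile normalization was replaced by scaling to the 75th percentile of each array, 12 members were called lower, and among all genes 421 were called lower and 256 higher, against 346 and 381. The calls rested on few arrays. Without DMSO replicate 2 or 42 µM replicate 2 no member was called, nor was any other gene. Without DMSO replicate 1, 3 or 4, 1 member was called, and without 28 µM replicate 3 or 42 µM replicate 1, 3 were. The median of the members stayed between −0.54 and −0.37 when any one array was left out.

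**Figure D1:**
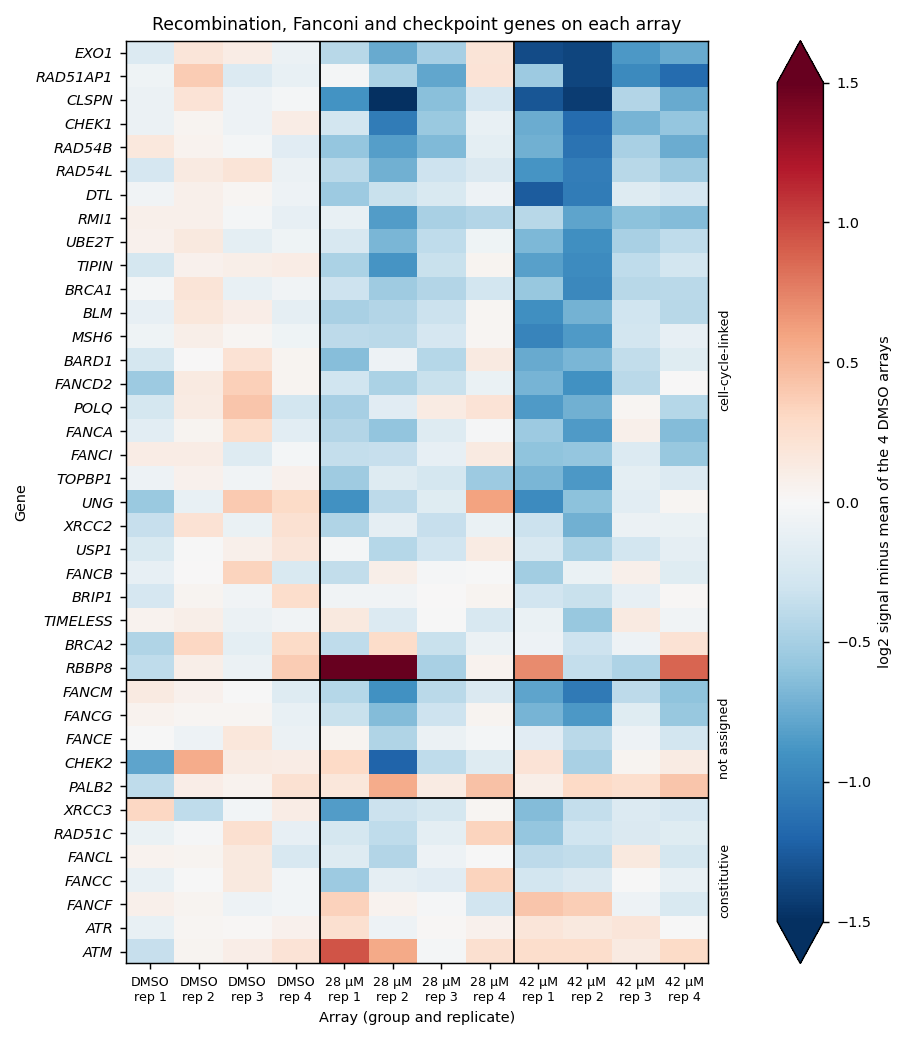
Colour gives the log2 signal of each of the 39 genes (rows, by class and then by change at 42 µM) on each of the 12 arrays (columns) minus the gene's mean over the 4 DMSO arrays. Most cell-cycle-linked rows are below 0 (blue) on the 42 µM arrays, most deeply on replicates 1 and 2, while 28 µM replicate 4 looks like DMSO and RBBP8 is high on 28 µM replicates 1 and 2.

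At 28 µM no gene was called, among the members or elsewhere, and the smallest adjusted p of a member was 0.234. At an unadjusted p below 0.05, 9 members were lower and 1, ATM, was higher (6.28% and 5.57% of all genes). The median of the members was −0.26, that of all genes −0.02, and 34 of 39 were below 0 (54.6% of all genes). In 6 members, CLSPN, CHEK1, FANCM, DTL, BRCA1 and TOPBP1, all 28 µM arrays lay below all DMSO arrays (2.93% of all genes), and in 0 above them (2.78%). Without replicate 4 the median was −0.37 and 1 member, RAD54B, was called (log2 change −0.69, SE 0.15, adjusted p = 0.0319), against 0.986% of all genes called lower in that fit, and 0 members were called higher (1.44% of all genes). The changes at 28 µM then were −0.42 for RAD51AP1, −0.47 for RAD54L, −0.58 for FANCM, −0.44 for UBE2T, −0.56 for EXO1, −0.48 for RMI1, −0.62 for CHEK1, −1.01 for CLSPN, −0.37 for DTL, 0.50 for ATM and 0.06 for ATR, while the values given gene by gene further on are from all arrays. In the same fit 9 members were called lower at 42 µM (1.88% of all genes) and 0 higher (2.23%).

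Between the doses, no gene was called at 42 µM against 28 µM, and at an unadjusted p below 0.05 there were 3 lower members (1.48% of all genes) and 0 higher (1.11%). These were EXO1 with a difference of −0.72, RAD51AP1 with −0.74 and FANCI with −0.31, and the adjusted p of each was 1.0. The median of the difference was −0.20 and 35 members were lower at the higher dose (45.3% of all genes). Without 28 µM replicate 4 the median was −0.13, against 0.02 for all genes. In that fit 2 members were lower and 0 higher at an unadjusted p below 0.05 (200 and 259 of all 24251 genes). The size of the step between the doses thus depended in part on that array.

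**Figure D2:**
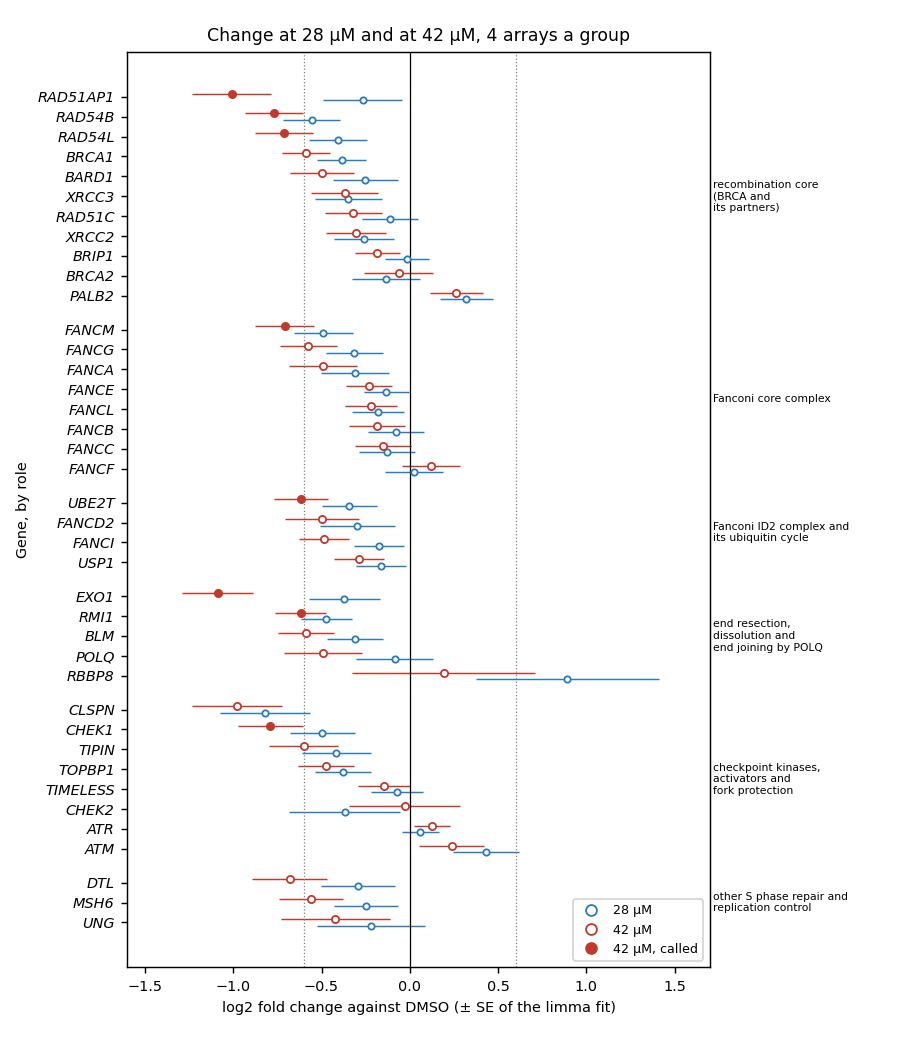
Points are log2 fold changes against DMSO for each gene at 28 µM (blue) and 42 µM (red, filled where called), with the SE of the limma fit as bars, n = 4 arrays a group. Dotted lines stand at 0.6 in either direction. In every role most points lie left of 0, and ATM, ATR, PALB2, FANCF and RBBP8 lie right of it at 42 µM.

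The calls of each role below stand beside 1.43% of all genes called lower at 42 µM, and 0 or 1 call in a role of few genes says little. Among the 11 genes of recombination itself, 3 were called lower at 42 µM and the median was −0.37. RAD51AP1, an accessory factor that stimulates strand invasion by the recombinase, had the largest change, on a probe at chr12:4668182-4668241 (plus strand) of hg19, the build of all probe positions given. Its log2 signal was 9.45, 9.90, 9.31 and 9.40 on DMSO replicates 1 to 4. It was 9.49, 9.05, 8.74 and 9.72 at 28 µM and 8.97, 8.14, 8.56 and 8.36 at 42 µM. All 42 µM arrays lay below all DMSO arrays, while the 28 µM arrays overlapped both groups. The change at 42 µM was −1.01 (SE 0.23, adjusted p = 0.0310), 2.01-fold lower, and at 28 µM −0.27 (SE 0.23).

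RAD54L and RAD54B are translocases that remodel the joint between the invading strand and its template. RAD54L, with a probe at chr1:46744038-46744097 (plus strand), read 10.32, 10.71, 10.76 and 10.48 on DMSO, 10.16, 9.85, 10.26 and 10.36 at 28 µM and 9.69, 9.54, 10.15 and 10.04 at 42 µM. Every 42 µM array was below every DMSO array, and the change was −0.71 (SE 0.16, adjusted p = 0.0351). For RAD54B the DMSO arrays read 8.85, 8.74, 8.66 and 8.52, those of 28 µM 8.11, 7.86, 8.02 and 8.55, and those of 42 µM 7.96, 7.58, 8.20 and 7.94. Here 3 of the 28 µM arrays were at the level of the 42 µM arrays and replicate 4 at that of DMSO. It changed by −0.77 (SE 0.16, adjusted p = 0.0254) at 42 µM and by −0.56 (SE 0.16) at 28 µM. A second, dimmer probe of RAD54B changed by −0.43 at 42 µM and −0.13 at 28 µM.

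BRCA1, the ubiquitin ligase that opens the pathway, is described because it came close to the limits. Its DMSO arrays read 9.38, 9.60, 9.30 and 9.36, its 28 µM arrays 9.10, 8.88, 8.98 and 9.13, and its 42 µM arrays 8.84, 8.44, 8.99 and 9.0. Neither dose overlapped DMSO. The change was −0.39 (SE 0.14) at 28 µM and −0.59 (SE 0.14, adjusted p = 0.0351) at 42 µM, just short of the limit of 0.6. With no limit on the size it was 1 of 9 members with an adjusted p below 0.05 and a lower level (1.67% of all genes). Its partner BARD1 changed by −0.50 at 42 µM (adjusted p = 0.188). The loaders of the recombinase moved less: BRCA2 changed by −0.06 on a probe well above background on 3, 3 and 4 arrays of the groups, and PALB2, which bridges BRCA1 and BRCA2, by 0.26 (adjusted p = 0.455 from limma). The helicase BRIP1 and the recombinase paralogues XRCC2, XRCC3 and RAD51C had changes of −0.18, −0.31, −0.37 and −0.32, none of them with an adjusted p below 0.05. BRIP1 was dim too, at 6.30 to 6.82 on the DMSO arrays. RAD51C was the only constitutive member whose 42 µM arrays did not overlap DMSO.

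Of the 8 genes of the Fanconi core complex, 1 was called lower at 42 µM, and the median was −0.23. It was FANCM, the translocase that brings the complex to stalled forks. Its arrays, with a probe at chr14:45669210-45669269 (plus strand), read 9.92, 9.85, 9.78 and 9.59 on DMSO, 9.36, 8.88, 9.37 and 9.57 at 28 µM and 8.99, 8.73, 9.40 and 9.18 at 42 µM. Both doses lay wholly below DMSO, 28 µM replicate 4 only just. The change was −0.49 (SE 0.17) at 28 µM and −0.71 (SE 0.17, adjusted p = 0.0399) at 42 µM. The brightest of its probes gave these values, and its other probes changed by −0.39 and −0.12 at 42 µM and by −0.21 and 0.17 at 28 µM. The last of these is near background, well above it on 3, 3 and 1 arrays of the groups. The reason for the smaller changes of the other probes was not tested. With the mean of a gene's probes in place of the brightest, FANCM was not called.

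The other core genes ran from −0.57 for FANCG (adjusted p = 0.0806), a scaffold of the complex, and −0.49 for FANCA, which binds it, over −0.23 for FANCE, −0.22 for FANCL, the ligase subunit, −0.19 for FANCB and −0.15 for FANCC to 0.12 for FANCF. In FANCG the 42 µM arrays, from 11.42 to 12.10, all lay below the DMSO arrays, from 12.17 to 12.34.

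The FANCD2 and FANCI pair and the enzymes that ubiquitinate it and take the ubiquitin off made up 4 members, with a median of −0.49 at 42 µM and 1 call. UBE2T, with a probe at chr1:202300906-202300965 (minus strand), read 13.33, 13.41, 13.11 and 13.19 on DMSO, 13.01, 12.57, 12.88 and 13.20 at 28 µM and 12.58, 12.34, 12.78 and 12.87 at 42 µM. The groups of DMSO and 42 µM did not overlap, and the change was −0.62 (SE 0.15, adjusted p = 0.0477), 1.53-fold lower, close to both limits. FANCI changed by −0.49 (adjusted p = 0.0874), with −0.57 and −0.58 on its other probes, and its groups did not overlap either. FANCD2 changed by −0.50 (adjusted p = 0.270) on its brightest probe, by −0.33 on a second and by 0.06 on another, which was well above background on only 1, 2 and 1 arrays of the groups. USP1, which removes the ubiquitin, changed by −0.29.

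The largest change of all members was that of EXO1, the exonuclease that resects broken ends far into the duplex. Its arrays, with a probe at chr1:242048717-242048776 (plus strand), read 8.91, 9.29, 9.22 and 9.02 on DMSO, 8.70, 8.35, 8.62 and 9.30 at 28 µM and 7.77, 7.73, 8.25 and 8.36 at 42 µM. The 42 µM arrays were all below the DMSO arrays, the lowest DMSO array standing above the highest of 42 µM by over 0.5. Of the 28 µM arrays, replicates 1 and 3 lay between the groups, replicate 2 was at the top of the 42 µM range, and replicate 4 was as high as DMSO. The fold was 2.12 lower at 42 µM, a log2 change of −1.09 (SE 0.20, adjusted p = 0.0164), and at 28 µM the change was −0.37 (SE 0.20). This probe is spotted 10 times on each array, with a median SD of 0.23 over the spots.

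RMI1, a scaffold of the BLM complex that dissolves double Holliday junctions, was called as well. With a probe at chr9:86618846-86618905 (plus strand), it read 10.50, 10.50, 10.39 and 10.30 on DMSO, 10.30, 9.58, 9.93 and 9.98 at 28 µM and 10.00, 9.62, 9.81 and 9.77 at 42 µM. Here the 42 µM arrays lay within the range of the 28 µM arrays and below all DMSO arrays, and the changes were −0.47 (SE 0.14) and −0.62 (SE 0.14, adjusted p = 0.0373). The helicase BLM changed by −0.59 (adjusted p = 0.0656) and did not overlap DMSO. POLQ, the polymerase of an end joining route that uses short repeats, changed by −0.49 (adjusted p = 0.300), and by −0.18 on a second probe that was well above background on all arrays.

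RBBP8, which encodes the factor CtIP that starts resection, had the widest spread of the members. It was 6.01, 6.48, 6.30 and 6.78 on DMSO, 8.16, 8.63, 5.90 and 6.45 at 28 µM and 7.10, 6.04, 5.92 and 7.27 at 42 µM. 28 µM replicates 1 and 2 were the highest, and 42 µM replicates 1 and 4 also lay above the DMSO arrays. The changes of 0.89 (SE 0.52) and 0.19 (SE 0.52) had unadjusted p values of 0.108 and 0.717, and the probe was well above background on 2, 3 and 2 arrays of the groups.

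Of the 8 checkpoint genes, CHEK1 was called lower at 42 µM, and the median was −0.31. CHEK1, the effector kinase below ATR, with a probe at chr11:125525491-125525550 (plus strand), read 9.99, 10.12, 10.01 and 10.19 on DMSO, 9.80, 9.03, 9.53 and 9.97 at 28 µM and 9.33, 8.93, 9.38 and 9.50 at 42 µM. Both doses lay below DMSO on all arrays. The changes were −0.50 (SE 0.19) and −0.79 (SE 0.19, adjusted p = 0.0377), the latter 1.73-fold lower.

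CLSPN, the adaptor that hands CHEK1 to ATR, had the largest change of this role but was not called. With a probe at chr1:36204117-36204176 (minus strand), it read 8.29, 8.58, 8.30 and 8.35 on DMSO, 7.49, 6.87, 7.76 and 8.13 at 28 µM and 7.10, 6.95, 7.94 and 7.62 at 42 µM. All 8 treated arrays lay below all DMSO arrays, and the treated arrays of both doses spread widely, with SDs of 0.53 and 0.46 against 0.14 on DMSO. The change was −0.82 (SE 0.26) at 28 µM, the lowest of any member at that dose, and −0.98 (SE 0.26, adjusted p = 0.0575) at 42 µM.

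The kinases at the top of the pathway had small or positive changes. ATM, which senses double strand breaks, with a probe at chr11:108236085-108236144 (plus strand), read 6.66, 7.05, 7.10 and 7.21 on DMSO, 7.94, 7.58, 6.98 and 7.24 at 28 µM and 7.26, 7.27, 7.13 and 7.29 at 42 µM. The highest values were those of 28 µM replicates 1 and 2, and the 42 µM arrays overlapped the DMSO arrays. Its changes were 0.43 (SE 0.18, unadjusted p = 0.0358) and 0.24 (SE 0.18, adjusted p = 0.631), with 0.35 and 0.33 on a second probe. ATR, the kinase of stalled forks, read 9.73, 9.87, 9.86 and 9.91 on DMSO, 10.08, 9.77, 9.85 and 9.90 at 28 µM and 10.02, 9.99, 10.02 and 9.83 at 42 µM. Its groups overlapped, with changes of 0.06 and 0.13 (SE 0.10 each).

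CHEK2, the effector kinase below ATM, was noisy and dim, above background on 3, 2 and 4 arrays of the groups. It read 6.04, 7.40, 6.96 and 6.95 on DMSO, 7.14, 5.63, 6.46 and 6.64 at 28 µM and 7.04, 6.35, 6.88 and 6.96 at 42 µM. The change at 42 µM was −0.03 (SE 0.31), and its sign turned when the processed signal scaled to the 75th percentile was used (0.039) or when single arrays were left out (from −0.29 to 0.16). TOPBP1, the activator of ATR, changed by −0.47 (adjusted p = 0.146) and lay below DMSO on all arrays of both doses. The fork protection pair TIMELESS and TIPIN, whose proteins bind each other, had changes of −0.15 and −0.60 (adjusted p = 0.132), and of the pair only TIPIN was separate from DMSO at 42 µM.

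The remaining 3 members are genes of S phase repair and replication control, with a median of −0.56 and 0 calls. DTL, the adaptor by which a ubiquitin ligase destroys licensing factors at PCNA, read 11.33, 11.46, 11.41 and 11.31 on DMSO, 10.84, 11.04, 11.15 and 11.30 at 28 µM and 10.13, 10.33, 11.19 and 11.13 at 42 µM. All treated arrays were below all DMSO arrays, but 42 µM replicates 1 and 2 stood well below replicates 3 and 4, and the change of −0.68 (SE 0.21) had an adjusted p of 0.110. MSH6, a mismatch sensor, changed by −0.56 (adjusted p = 0.128), and UNG, the glycosylase that removes uracil, by −0.42 (adjusted p = 0.595).

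**Figure D3:**
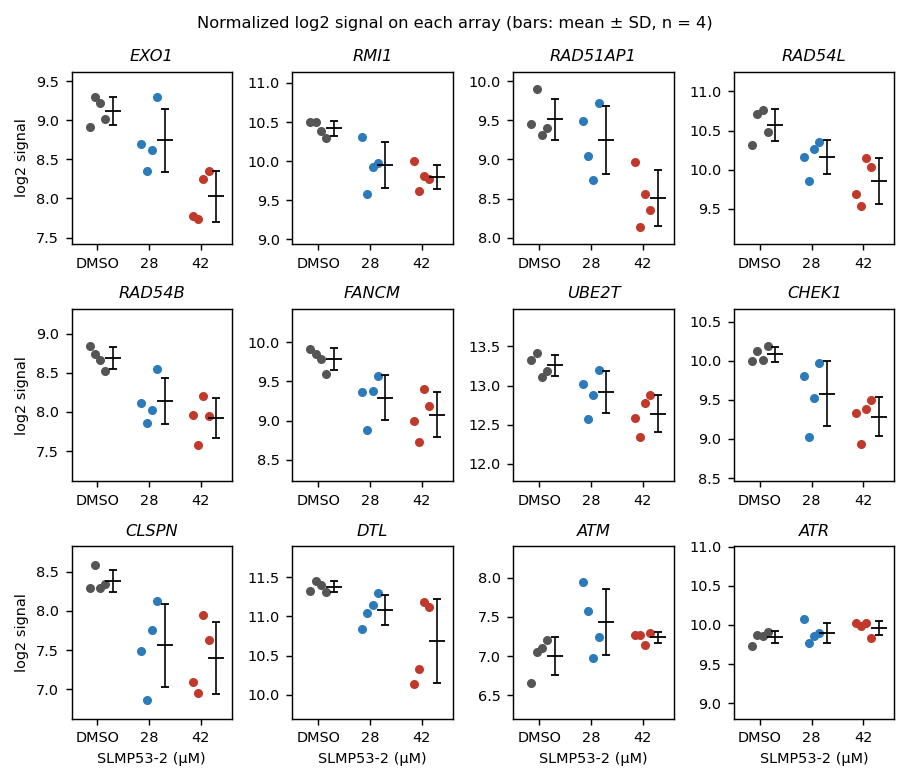
Each panel shows the log2 signal of 1 gene on the 4 arrays of DMSO, 28 µM and 42 µM (points, replicates 1 to 4 from left to right), with the mean and SD beside them, on axes of equal length. The 42 µM points of the first 10 genes lie below all DMSO points, and those of ATM and ATR overlap them.

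Set against each other, the classes differed in the size of their change. At 42 µM the median of the 27 cell-cycle-linked members was −0.50, with 7 called lower and 15 not overlapping DMSO. That of the 7 constitutive members was −0.15, with 0 called (0 at an unadjusted p below 0.05 in either direction), 1 not overlapping, and 4 below and 3 above 0. The 5 genes not assigned had a median of −0.23 and 1 call. Of all genes tested, 1.43% were called lower and 7.02% lay wholly below DMSO. At these shares, 0 calls among 7 genes say little about the constitutive class. At 28 µM the medians were −0.29, −0.11 and −0.31, and without replicate 4 they were −0.38, −0.24 and −0.43, so that the constitutive median moved by more than 1.5 times. The split follows general knowledge of the genes but was made with earlier results of these data known, and the members of a class share arrays, so no test was made of it.

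Array by array, the median of the cell-cycle-linked members minus that of the constitutive ones was −0.02, 0.06, −0.12 and −0.01 on DMSO, with each gene's DMSO mean taken off first. It was −0.19, −0.30, −0.26 and −0.08 at 28 µM and −0.41, −0.63, −0.29 and −0.10 at 42 µM. The mean was −0.02 ± 0.07 (SD, n = 4), −0.21 ± 0.10 and −0.36 ± 0.22. The lowest differences were on 42 µM replicates 1 and 2, and 28 µM replicate 4 and 42 µM replicate 4 lay inside the range of the DMSO arrays. The proliferation markers too were lowest on replicate 2 of each dose, at −0.72, −0.97, −0.89 and 0.07 on the 28 µM arrays and −1.21, −1.5, −1.11 and −0.82 on those of 42 µM, and the part they share with the members was not tested.

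**Figure D4:**
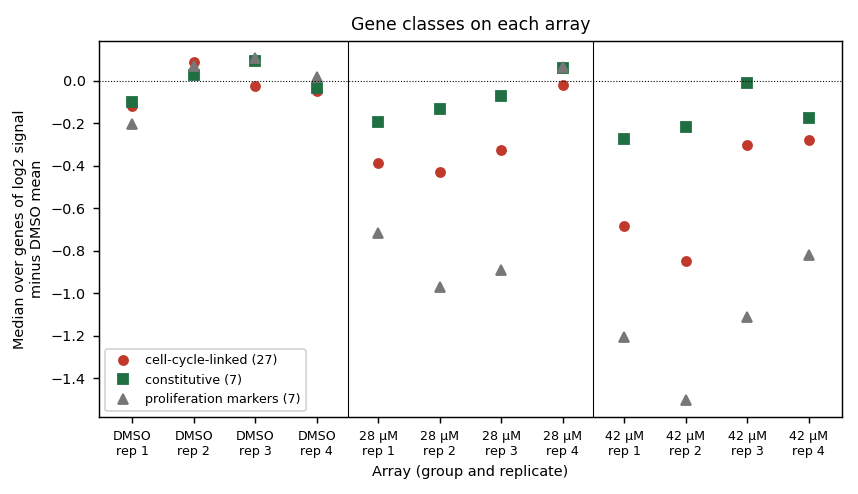
For each of the 12 arrays, symbols give the median log2 signal minus the DMSO mean over 27 cell-cycle-linked members (circles), 7 constitutive members (squares) and 7 proliferation markers outside the list (triangles). On 42 µM replicates 1 and 2 the circles lie at −0.69 and −0.85 and the squares at −0.28 and −0.22, and on 28 µM replicate 4 all 3 symbols lie near 0.

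The slides held different groups, and within slides the direction at 42 µM was the same. On slides 2, 4 and 5, which each held an array of DMSO and of 42 µM, the median of the members was −0.55, −0.77 and −0.31, with 34, 35 and 31 of 39 lower. The median of all genes was −0.002, 0.005 and 0.002 on these slides. All 8 called members were lower on each of the 3 slides. This was fixed beforehand, because every 42 µM array lay below every DMSO array in each of the 8, so it adds no support. EXO1 ranged from −1.49 to −1.05. ATM and ATR were higher on each, from 0.06 to 0.17 and from 0.11 to 0.15. For 28 µM against DMSO the medians were −0.10, −0.29 and −0.04 on slides 1, 2 and 4, where the 28 µM array of slide 4 is replicate 4, the one close to DMSO. For 42 µM against 28 µM they were −0.25, 0.08 and −0.69 on slides 2, 3 and 4. The step between the doses was not seen on slide 3, and the value of slide 4 again rests on 28 µM replicate 4. With the slide as a fixed term in the model the median of the members was −0.50. At an unadjusted p below 0.05, 22 members were lower and 0 higher (1708 and 2122 of all 24251 genes), but 0 were called, and 1 gene in all. With the slide as a random block 8 members were called, and 428 genes lower and 482 higher.

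Other repair genes at 42 µM gave smaller medians than the members. Of 45 other recombination and Fanconi genes 3 were called lower: MCM8 (−0.77, adjusted p = 0.0314), a helicase of recombination, RMI2 (−0.63, adjusted p = 0.0408), which binds RMI1, and RPA2 (−0.74, adjusted p = 0.0359), a subunit of the protein that coats single strands. Their median was −0.15, with 30 below 0. At an unadjusted p below 0.05, 13 of the 45 were lower and 3 higher. All 42 µM arrays lay below all DMSO arrays in 10 of them and above in 1. Among 21 other checkpoint genes H2AX (−1.08, adjusted p = 0.0189), the histone marked at breaks, PKMYT1 (−0.99, adjusted p = 0.0267), a kinase that restrains CDK1, and WDHD1 (−0.66, adjusted p = 0.0399), a replisome adaptor, were called lower, and the median was −0.22. Of these 21, 9 were lower and 1 higher at an unadjusted p below 0.05, and the 42 µM arrays lay wholly below DMSO in 9 and wholly above in 1. None of 13 non-homologous end joining genes was called by limma (median −0.09, 2 lower and 0 higher at an unadjusted p below 0.05). Nor was any of 20 nucleotide excision repair genes (median −0.04, 3 lower and 0 higher). No gene of these lists was called higher. Of all genes tested, 1.43% were called lower and 1.57% higher. At an unadjusted p below 0.05, 7.72% of all genes were lower and 8.35% higher. The 42 µM arrays lay wholly below DMSO in 7.02% of all genes and wholly above in 5.94%.

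**Figure D5:**
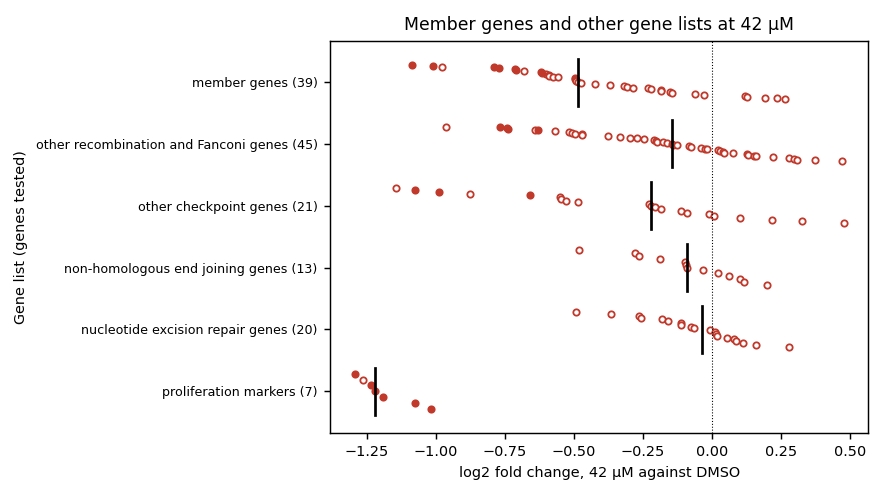
Each point is the log2 fold change of 1 gene at 42 µM against DMSO (filled where called), each black bar the median of its list, and the number of genes tested is in brackets. The medians run from −1.22 for the proliferation markers and −0.49 for the members to −0.04 for nucleotide excision repair genes.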

How the data were processed

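Per the labels, total RNA of HuH-7 cells was labelled with Cy3 and hybridised to Agilent arrays. The submitters' processing notes name Agilent Feature Extraction 10.7.3.1 and limma. The authors deposited scanner intensities per spot and a table of log2 values, which they had background-corrected (Edwards) and quantile normalized. The same steps were applied here to mean and background intensities with limma 3.58.1 in R 4.3.3, without control and outlier spots, and spots of a probe were averaged. Probes were dropped (7533 of 41000) where, in each group, 3 or more of the 4 arrays did not have them well above background. 28078 probes (68.5%) were named by RefSeq accession, the others by the array's design. Probe positions are of hg19.

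One limma model (lmFit, eBayes) covered the 12 arrays and 3 groups, two-sided, with Benjamini-Hochberg adjustment over 33467 probes. The brightest tested probe stood for a gene. Called means an adjusted p below 0.05 and a log2 change of at least 0.6 in size. The number of arrays limits the precision.

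The members, classes and lists were chosen with earlier results of these data known. Array values are given for called members, the largest change in each role, ATM, ATR, CHEK1 and CHEK2. BRCA1 and RBBP8 were added after their values were seen. One further gene list is not reported here. Simulated data served as a test of the steps. Alternatives covered background correction, normalization, filter, the authors' values, slide and replicate blocks, groups fitted, intensity trend, array weights, the log2 limit, the probe of a gene and leaving out each array. Tables and plots used Python 3.11.15, pandas 2.3.3, numpy 2.4.6 and matplotlib 3.10.9.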

Additional observations from a re-analysis of the deposited data

Results flagged for a closer look

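In 129 groups of 4 arrays (each member in each group, and the medians of the members and classes) 2 held an array set apart from the other 3 by more than Dixon's critical value for 4 samples, of which chance gives about 1 in 20. FANCI read 11.36 on 42 µM replicate 3, against 10.95 to 10.996 on the other 42 µM arrays. TIPIN read 11.52 on DMSO replicate 1, against 11.84 to 11.89 on the other DMSO arrays. Neither gene was called.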

How the results depend on the processing

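The median of the members at 42 µM kept its direction in all alternatives, as did the difference between cell-cycle-linked and constitutive members (−0.56 to −0.34, and −0.45 to −0.32 with an array left out). The member median was −0.77 within slide 4, and it ranged from −0.54 to −0.37 with an array left out. At 28 µM the member median ranged from −0.37 to −0.20 with an array left out. It was −0.044 within slide 4, whose 28 µM array is replicate 4. The class difference at 28 µM was −0.29 and −0.30 with the 75th percentile scaling of the processed signal and of the Edwards values. It was −0.37 within slide 2, and −0.24 to −0.13 with an array left out. The 8 members called at 42 µM became 1 with the quantile-normalized processed signal, 5 with the processed signal scaled to the 75th percentile, 12 with the Edwards values scaled in that way, 0 with the slide as a fixed block, 2 with a log2 limit of 1, and 0 to 9 with an array left out. At 28 µM 0 to 1 were called with an array left out. EXO1 was called in 17 of 18 alternatives on all arrays and in 10 of 12 that left an array out, the other 7 called members in 13 to 15 and in 3 to 6. CHEK2 turned to 0.039 with the processed signal scaled to the 75th percentile and ranged from −0.292 to 0.159 with an array left out. Over all genes at 42 µM, 346 lower and 381 higher calls became 177 and 206 with the quantile-normalized processed signal, 1 and 0 with the slide as a fixed block, 139 and 172 with a log2 limit of 1, and 0 to 456 and 0 to 542 with an array left out, and 294 were lower and 201 higher with the processed signal scaled to the 75th percentile. Scaling the Edwards values in that way gave 421 and 256. At 28 µM 0 to 239 genes were called lower and 0 to 350 higher with an array left out. The labels' replicate numbers were not used as pairs in the main fit. Correlations of same-numbered arrays ran from −0.46 to 0.62, with a median of 0.219 against −0.071 for other pairs across groups. Of the 12 same-numbered pairs 7 were over 0.1, and 5 arrays correlated best with their own number. These values do not settle whether the numbers pair the arrays. With the replicate block 10 members were called at 42 µM, 488 genes lower and 622 higher, and at 28 µM 1 gene lower and 1 higher. The cause of these changes was not tested. Members near background (BRCA2, CHEK2, RBBP8) are measured less well.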
